A study of Mus musculus with 24 samples.

Results

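Glutathione transferases of the mouse lung were followed through an experiment on acute lung injury. The set held 10 genes of the cytosolic family, which were Gsta1, Gsta13, Gsta2, Gsta3 and Gsta4 of the alpha class, Gstm1 and Gstm2 of the mu class, Gstp1 of the pi class, Gsto1 of the omega class and Gstt1 of the theta class. They are 10 of 78298 genes in the table and 10 of the 17823 that passed the filter on low values. They were chosen by name with earlier results of these same libraries in view, among them a large difference of Gsta1 and Gsta13 between LPS and control lungs and a wide spread among challenged lungs, so those patterns are described here and are no independent evidence. Levels are TPM, a measure of transcript abundance that corrects for transcript length and adds up to the same total in every library.

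All mice were wild type C57BL/6 of 7 weeks according to the labels, and whole lung was taken from each, with ribosomal RNA removed from the total RNA before sequencing. The control group (n = 4) had no extract and received saline into the trachea on day 29 per the protocol, although the sample characteristics of these mice list LPS. The LPS group (n = 5) had no extract and received 5 mg/kg bacterial lipopolysaccharide into the trachea. The other groups drank an extract in water of Artemisia argyi (AEAA), a mugwort used in Chinese medicine, for 28 days before the same LPS dose, at 0.5 mg/mL (AEAA_low, n = 5), 1 mg/mL (AEAA_mid, n = 5) or 1.5 mg/mL (AEAA_high, n = 5). Lungs were collected 8 h after the challenge in all groups, and no group had the extract without LPS. The labels call all mice male, while the X-inactivation transcript Xist was between 25.8 and 95.5 TPM in every library and the Y-linked gene Ddx3y was at most 0.02 TPM.

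Glutathione transferases join the tripeptide glutathione to reactive, electron-poor molecules, such as products of lipid peroxidation, and the conjugates are then pumped out of the cell and trimmed to mercapturates. Many genes of the alpha, mu and pi classes are known targets of NRF2 (gene Nfe2l2), a transcription factor that Keap1 holds back until oxidants or electrophiles arrive, and that binds antioxidant response elements. In the airways these enzymes are known from club and ciliated cells, which meet inhaled chemicals first.

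Gsta1, Gsta13 and Gsta2 lie on chromosome 9, in the order Gsta4, Gsta1, Gsta13, Gsta5 and Gsta2 of the older GRCm38 annotation, where Gsta13 is called Gm3776 and Gsta5 is called Gm10639. Gsta3 is on chromosome 1, Gstm2 and Gstm1 are neighbours on chromosome 3, Gstp1 and Gsto1 are on chromosome 19, and Gstt1 is on chromosome 10. Gsta1 and Gsta13 moved together while Gsta2 had another baseline, and a link of this to upstream sequence was not tested. The 150 bases before the RefSeq start of Gsta1, and the stretches of Gsta13 and Gsta2 that align with them, are shown for comparison. They are given 5′ to 3′ with capitals where a base differs from Gsta1, at chr9:78230519-78230668 on the plus strand (Gsta1), chr9:78256992-78257141 on the plus strand (Gsta13) and chr9:78347151-78347298 on the minus strand (Gsta2) of GRCm38.p6.
Gsta1: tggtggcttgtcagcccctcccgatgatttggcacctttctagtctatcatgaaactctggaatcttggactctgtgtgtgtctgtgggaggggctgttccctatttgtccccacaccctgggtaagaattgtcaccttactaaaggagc
Gsta13: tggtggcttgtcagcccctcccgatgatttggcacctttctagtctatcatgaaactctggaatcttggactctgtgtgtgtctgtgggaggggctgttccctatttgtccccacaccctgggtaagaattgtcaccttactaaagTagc
Gsta2: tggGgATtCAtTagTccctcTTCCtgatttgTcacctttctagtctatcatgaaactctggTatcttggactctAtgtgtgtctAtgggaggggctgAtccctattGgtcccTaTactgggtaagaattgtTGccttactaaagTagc
The Gsta13 stretch differed from that of Gsta1 at 1 position, and the Gsta2 stretch, 148 bases long where the others have 150, differed at 24.

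The coding sequences were closer still, which matters for how reads can be told apart. Gsta1 and Gsta13 were identical at 667 of 669 coding bases (99.7%), and Gsta1 and Gsta2 at 653 of 666 (98.0%), in the GENCODE transcripts of GRCm38. The 100 coding bases with the most differences among the 3 genes, bases 565 to 664 counted from the start codon, were these, with capitals again where a base differs from Gsta1.
Gsta1: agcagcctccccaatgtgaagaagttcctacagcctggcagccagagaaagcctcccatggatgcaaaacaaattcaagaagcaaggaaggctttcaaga
Gsta13: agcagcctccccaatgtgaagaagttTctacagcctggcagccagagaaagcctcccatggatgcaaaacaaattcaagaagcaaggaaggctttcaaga
Gsta2: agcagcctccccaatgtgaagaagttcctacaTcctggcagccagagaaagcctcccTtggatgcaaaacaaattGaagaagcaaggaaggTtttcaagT
Over whole transcripts, 62.4% of the 150-base windows of Gsta1 occur unchanged in Gsta13 and 14.3% in Gsta2, against 0 in Gsta3 and in Gsta4. RSEM and StringTie are among the tools in the submitters' processing notes. How reads that fit more than 1 of these genes were divided in the deposited values is not given in the sources used here. The split between Gsta1 and Gsta13 is therefore uncertain, and the sum of Gsta1, Gsta2 and Gsta13 is given as well. The core of the antioxidant response element, searched as TGACNNNGC on both strands in the 300-base RefSeq windows around each start, was in the window of Gsta3 alone among the 9 members with an entry, and in 12.4% of 32851 windows of all genes. Sequence further from the starts was not searched, so a window without the core does not show that a gene lacks the element.

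In control lungs the order of levels ran from Gstm1 at 509 ± 45.0 TPM (SD, n = 4) over Gstp1 at 305 ± 16.2, Gsta3 at 249 ± 18.6, Gsto1 at 243 ± 46.0, Gsta4 at 200.4 ± 16.2, Gstm2 at 200.1 ± 23.6 and Gstt1 at 99.5 ± 5.33 down to Gsta2 at 22.9 ± 3.49, Gsta1 at 1.59 ± 0.676 and Gsta13 at 0.918 ± 0.401 TPM. Gsta3 and Gsto1, Gsto1 and Gsta4, Gsta4 and Gstm2, and Gsta1 and Gsta13 differed from each other by less than the spread between libraries. Together the 10 genes made up 1660.0 to 1990.3 TPM in the control libraries. Gsta1 and Gsta13 together were 0.0681% to 0.179% of that sum in control lungs and 1.33% to 15.5% in challenged lungs.

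After LPS the transferases did not move as a block. Gsta1 and Gsta13 went from at most 2.45 TPM to between 9.32 and 224 TPM, Gstp1 and Gsto1 rose modestly in TPM as deposited, and the remaining 6 did not pass the test. A shift of the whole scale lies under these values. The secretoglobin Scgb1a1 of club cells held 232069 to 354500.4 TPM in control libraries but 31286 to 64576 TPM after LPS. The median gene stood 0.55 log2 units higher in the LPS group. Each fit was also run on values divided by a median-of-ratios factor per library, a scale on which the median gene stayed in place (0.00). Values on that scale are called scaled below. In the fit across all genes with limma, 4 of the 10 members were called higher and 0 lower at an adjusted p of 0.05, where 56.2% of all genes were called higher and 1.86% lower. On the scaled values 2 members were called higher and 3 lower, where 13.8% and 14.2% of all genes were. The median log2 fold change of the 10 members was 0.37, and −0.30 scaled.

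Gsta1, which conjugates electrophiles and also reduces organic hydroperoxides, was at 1.51, 0.80, 1.59 and 2.45 TPM in the 4 control libraries and at 56.0, 148, 9.32, 199.8 and 65.1 TPM in LPS replicates 1 to 5. The groups did not overlap, and LPS replicate 3 was the lowest of the challenged group while replicates 2 and 4 were the highest. The log2 fold change was 4.69 (SE 0.726, limma adjusted p = 1.21e-05), and 4.18 scaled (adjusted p = 0.00029). Gsta1 was above the highest control value in all 20 challenged libraries, extract groups included, on both scales.

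Gsta13, its neighbour of nearly the same sequence, was at 1.22, 0.33, 1.01 and 1.11 TPM in control and at 61.2, 180.4, 12.6, 224 and 70.3 TPM in LPS libraries. The LPS libraries stood in the same order as for Gsta1, again with no overlap with the controls. The log2 fold change was 5.33 (SE 0.714, limma adjusted p = 2.26e-06), and 4.87 scaled (adjusted p = 6.85e-05). The ratio of Gsta13 to Gsta1 TPM was 0.413 to 0.808 in control libraries and 0.942 to 1.35 in the 20 challenged libraries.

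Gsta2, the third close copy, had a baseline of its own. It was at 27.6, 20.2, 20.4 and 23.5 TPM in control and at 22.0, 77.5, 12.0, 67.7 and 24.7 TPM in LPS libraries. LPS replicates 2 and 4 were above all controls, replicate 3 was below them, and the groups overlapped. The log2 fold change of 0.49 (SE 0.578, limma adjusted p = 0.486) did not pass, and it was −0.15 scaled. The ratio of Gsta2 to Gsta1 TPM was 9.60 to 25.2 in control libraries and 0.227 to 1.29 in challenged ones, without overlap.

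The sum of the trio, which depends less on how shared reads were split among them, was 21.3 to 30.3 TPM in control and 33.9 to 491 TPM in LPS libraries. The mean log2 difference was 2.73, and the exact two-sided permutation test gave p = 0.0159 for 4 against 5 libraries, the smallest p this design allows. On scaled values the difference was 2.08, LPS replicate 3 lay inside the control range, and the exact p was 0.0635.

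**Figure D1:**
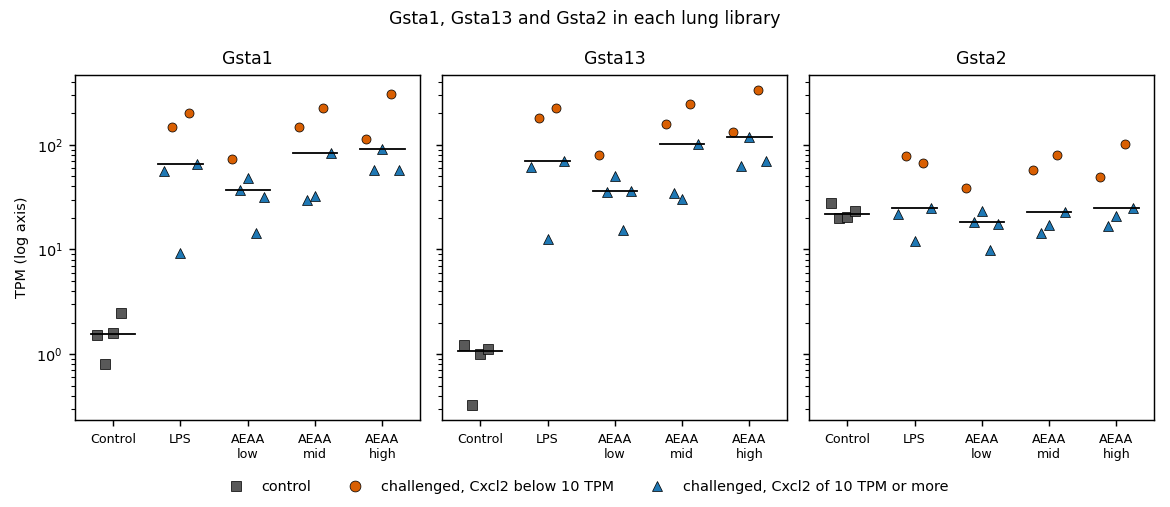
TPM (log axis) of Gsta1, Gsta13 and Gsta2 in each of the 24 libraries by group; squares are control libraries, circles challenged libraries with Cxcl2 below 10 TPM, triangles those at or above it, and lines are group medians. Gsta1 and Gsta13 were above every control library in all 20 challenged libraries, while Gsta2 as deposited was above them in the 7 circles (6 of them scaled) and in none of the 13 triangles.

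Gsta3, an alpha enzyme known in mice for the conjugation of aflatoxin epoxide, was at 249.9, 222, 261 and 262 TPM in control and at 199.8, 279, 207, 276 and 250.0 TPM in LPS libraries. The groups overlapped, and the log2 fold change was −0.05 (SE 0.224, limma adjusted p = 0.871). Scaled, it was −0.72 (adjusted p = 0.0119) and passed as lower, with no overlap. Gsta4, which clears the lipid peroxidation product hydroxynonenal, was at 217, 179, 207 and 199.6 TPM in control and at 264, 350.0, 139, 325 and 223 TPM in LPS libraries. LPS replicate 3 was below all controls and replicates 1, 2, 4 and 5 were above them. Its log2 fold change of 0.31 (SE 0.295, limma adjusted p = 0.389) did not pass and was −0.36 scaled (adjusted p = 0.321).

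The mu class, active on epoxides and quinones, was abundant before the challenge. Gstm1 was at 498, 456, 515 and 565 TPM in control and at 408, 736, 415, 750.4 and 573 TPM in LPS libraries, with LPS replicates 1 and 3 below all controls and 2, 4 and 5 above them. The log2 fold change was 0.14 (SE 0.303, limma adjusted p = 0.725), and −0.53 scaled (adjusted p = 0.132). Gstm2 was at 207, 168, 202 and 224 TPM in control and at 208, 202, 191, 247 and 234 TPM in LPS libraries. These ranges overlapped, and the log2 fold change of 0.11 (adjusted p = 0.441) turned to −0.55 scaled, where it passed as lower (adjusted p = 0.00151).

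Gstp1, the pi enzyme, which accepts a wide range of electrophiles, was at 298, 318, 286 and 320.1 TPM in control and at 406, 458, 352, 483 and 383 TPM in LPS libraries. The LPS libraries were all above the controls, and the log2 fold change was 0.44 (SE 0.120, limma adjusted p = 0.00342). That is below the median gene, and scaled it turned to −0.23 (adjusted p = 0.109). Gsto1, the omega enzyme, which acts as a thiol transferase and reduces dehydroascorbate, was at 217, 192, 273 and 289.6 TPM in control and at 533, 645, 219, 684 and 518 TPM in LPS libraries. LPS replicate 3 lay inside the control range and the other LPS libraries were above it. The log2 fold change was 1.01 (SE 0.320, limma adjusted p = 0.00979), and 0.34 scaled, where it did not pass (adjusted p = 0.379). With Scgb1a1 taken out of the table and the rest rescaled, neither Gstp1 (0.03, adjusted p = 0.875) nor Gsto1 (0.60, adjusted p = 0.151) passed.

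Gstt1, the theta enzyme, known for small halogenated compounds, was at 96.2, 105, 93.8 and 103 TPM in control and at 92.0, 107, 90.2, 116 and 108 TPM in LPS libraries. The ranges overlapped, and the log2 fold change was 0.04 (SE 0.182, limma adjusted p = 0.874). Scaled, it was −0.63 (adjusted p = 0.00526), and all 20 challenged libraries were below the control range on that scale. Counted over the members, LPS and control libraries did not overlap for Gsta1, Gsta13 and Gstp1 as deposited, all 3 higher, where 49.7% of all genes were higher without overlap. On scaled values Gsta1 and Gsta13 were again higher without overlap, and the share of all genes higher in this way is not given here. Gsta3, Gstm2 and Gstt1 were lower without overlap on that scale, where 13.5% of all genes were. In whole lung, fewer cells of a type and less RNA per cell cannot be told apart in any of these values. Markers of club cells, 11 genes, summed to 243456 to 369336 TPM in control and 36468 to 71199.6 TPM in LPS libraries. Most of that sum was Scgb1a1 alone, so it says little of the other club cell markers. Those of ciliated cells, 10 genes, summed to 1599 to 1902 TPM in control and 989.5 to 2013 TPM in LPS libraries. The part of both cell types in the transferase values was not tested.

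**Figure D2:**
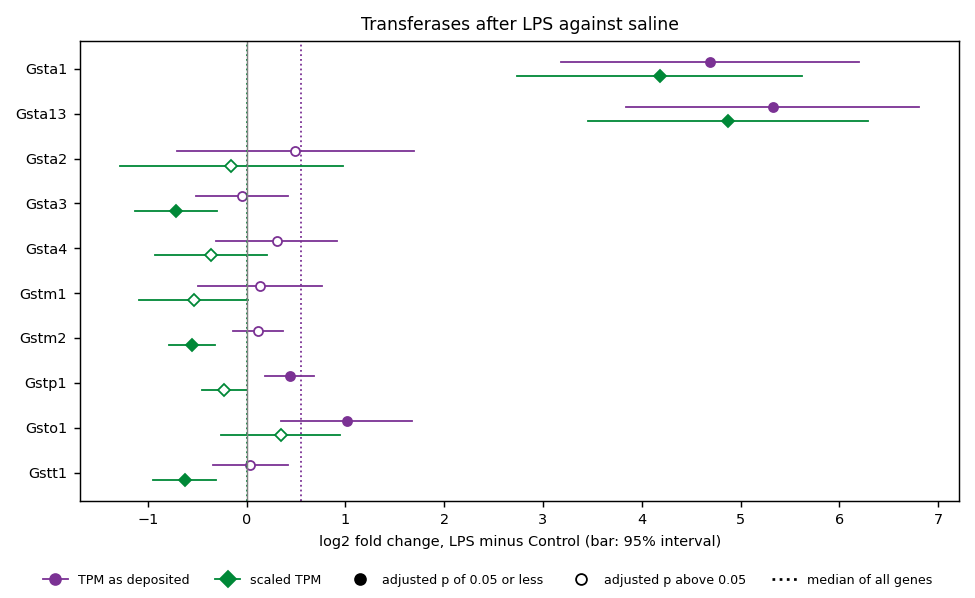
Log2 fold change of each member between LPS and control (horizontal axis, bars are 95% intervals), for TPM as deposited and scaled, with the median of all genes as dotted lines; filled symbols passed an adjusted p of 0.05. Gsta1 and Gsta13 passed as higher on both scales, while Gsta2, Gsta4, Gstm1, Gstm2, Gstp1 and Gstt1 lay above 0 as deposited and below 0 scaled.

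The challenged libraries fell apart in Cxcl2, a chemokine that draws neutrophils, and the transferases were next described by it. Cxcl2 was 0.09 to 1.37 TPM in 7 of the 20 challenged libraries, which were AEAA_high replicates 1 and 4, AEAA_mid replicates 1 and 4, AEAA_low replicate 1 and LPS replicates 2 and 4, and 45.1 to 454 TPM in the other 13. Control libraries had 0.06 to 0.27 TPM. Because this cut at 10 TPM uses a measured value, both sides are only described, without a test, and their lungs are not groups of the study.

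Among the trio, values were highest where Cxcl2 was low. The lowest, median and highest Gsta1 TPM were 73.5, 149 and 303 in the 7 libraries below the cut and 9.32, 47.7 and 91.7 in the 13 above it. For Gsta13 they were 80.7, 180.4 and 332 below and 12.6, 50.2 and 119 above the cut. Both genes overlapped between the sides through AEAA_high replicate 3 and AEAA_mid replicate 5, which had high Cxcl2 with Gsta1 at 91.7 and 84.2 TPM. Gsta2 was 38.4, 67.7 and 102 TPM below and 9.81, 18.3 and 24.9 TPM above the cut, and its sides did not overlap.

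As deposited, Gsta2 was above the control range in all 7 libraries below the cut and in 0 of the 13 above it, and 7 of those 13 were under the range. Scaled, 6 of the 7 were above the range, and 12 of the 20 challenged libraries were under it. The sum of the trio was 193, 406 and 736 TPM below and 33.9, 121 and 232 TPM above the cut, with an overlap. The highest value of each of the 3 genes was in AEAA_high replicate 4, and the lowest challenged values of Gsta1 and Gsta13 were in LPS replicate 3.

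**Figure D3:**
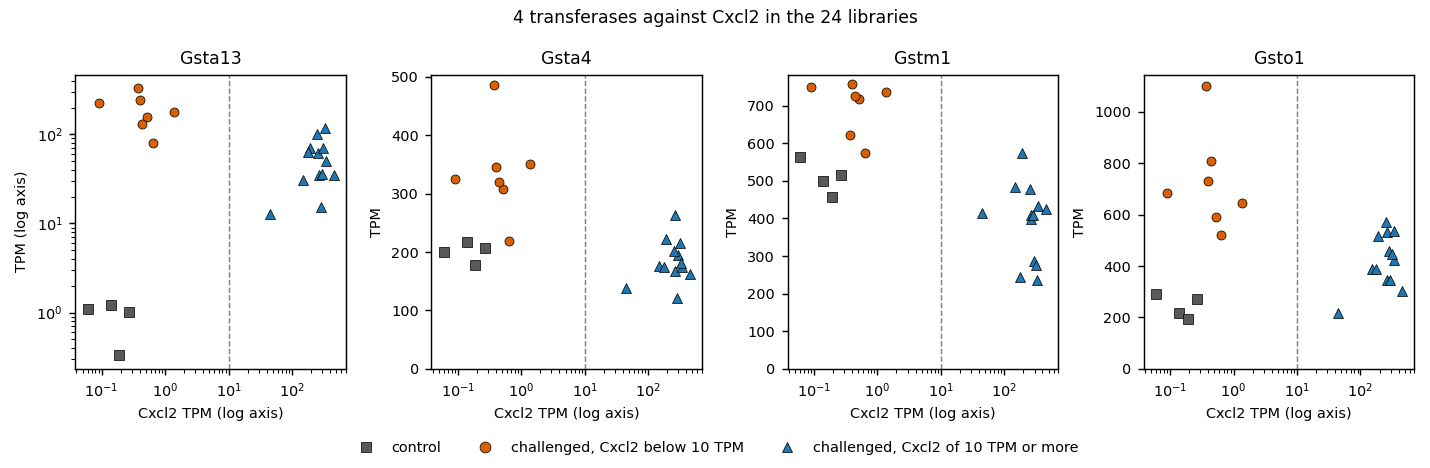
TPM of Gsta13 (log axis), Gsta4, Gstm1 and Gsto1 (linear axes from 0) against Cxcl2 TPM (log axis) in the 24 libraries, with a dashed line at 10 TPM; symbols are as in the plot of the trio. In these plots of deposited TPM the 7 circles lie above the squares of the control libraries, as do all 13 triangles of Gsta13 and 12 of Gsto1. For Gstm1 all 7 circles are above all 13 triangles. On scaled values 7 circles of Gsta13 and of Gsto1, 1 of Gsta4 and 0 of Gstm1 are above the control range.

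Gstm1 also had sides without overlap, with 574, 726 and 757 TPM (lowest, median and highest) below the cut and 236, 409 and 573 above it. The control range of 456 to 565 TPM lay under all 7 libraries below the cut as deposited, while on scaled values 0 of the 7 were above the control range and 14 of all 20 challenged libraries were under it. As deposited, above the cut, 10 of the 13 libraries were under that range, among them AEAA_high replicates 2, 3 and 5 at 244, 236 and 275 TPM. Gstm2 was 192, 218 and 248 TPM below and 136, 199.5 and 234 TPM above the cut, a wide overlap.

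Of the remaining members, Gsta4 was 219, 325 and 486 TPM below and 121, 176 and 264 TPM above the cut. Gsto1 was 519, 684 and 1099 TPM below and 219, 424 and 570.0 TPM above. Gsta3 was 221, 276 and 325 TPM below and 138, 181 and 250.0 TPM above. In all 3 the median was higher where Cxcl2 was low, and the sides overlapped. Gstp1 was 385, 468 and 546 TPM below and 322, 392 and 442 TPM above. Gstt1 was 98.5, 113 and 123 TPM below and 54.8, 82.4 and 108 TPM above. As deposited Gstp1 was above the control range in all 20 libraries, and scaled in 2, with 10 below it. Gstt1 was under the control range in 9 libraries as deposited and in all 20 scaled.

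In all, 2 of the 10 members, Gsta2 and Gstm1, were higher below the cut without overlap and 0 were lower, on both scales. Of all genes 3.29% were higher and 2.91% lower in this way, and 2.15% and 4.52% on scaled values; nothing is read from these shares, since the cut was part of how the set was described. The libraries nearest the cut were LPS replicate 2, with Cxcl2 at 1.37 TPM, and LPS replicate 3, with Cxcl2 at 45.1 TPM. In these 2 libraries Gsta1 was 148 and 9.32, Gsta13 180.4 and 12.6, Gsta2 77.5 and 12.0, Gsta3 279 and 207, and Gsta4 350.0 and 139 TPM. Gstm1 was 736 and 415, Gstm2 202 and 191, Gstp1 458 and 352, Gsto1 645 and 219, and Gstt1 107 and 90.2 TPM. As deposited each of the 10 was higher in LPS replicate 2, and scaled Gstm2 was lower there.

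Markers of several cell types differed between the sides as well. The summed TPM of 10 ciliated cell markers was 1757 to 2506 below and 698 to 1429 above the cut, and that of 9 type II alveolar cell markers 38299 to 45678 and 11116 to 32117, both without overlap. Club cell markers summed to 30793 to 101594 and 38136 to 92797 TPM and 10 macrophage markers to 5951 to 9328 and 5786 to 10185 TPM, with overlap. Neutrophil markers, 10 genes, summed to 295 to 2078 TPM below and 1861 to 12667 TPM above, against 138 to 203 TPM in control. No marker of these 5 lists was at 0 in all libraries, and the part of these cells in the transferase values was not tested. Liver expresses several of these transferases strongly, and 8 hepatocyte markers summed to 6.07 to 88.3 TPM over all libraries, 4 of them with a mean under 1 TPM. Skeletal muscle markers, 8 genes, summed to 3742 TPM in the highest library, and Acta1, the actin of that muscle, reached 1990.3 TPM. The 3 libraries with these transcripts were LPS replicates 1 and 3 and AEAA_low replicate 5, all above the cut. Leaving them out keeps LPS replicates 2, 4 and 5, of which 2 and 4 lay below the cut. Such fits therefore also change the Cxcl2 make-up of the LPS group. Squamous epithelium markers, 8 genes, summed to at most 5.54 TPM in control libraries, 7.17 to 35.5 TPM below and 1.56 to 940.1 TPM above the cut. Cardiac muscle markers, 8 genes, summed to 636 to 1385 TPM in control, 369.7 to 2220.1 TPM below and 184 to 618 TPM above the cut, and adipocyte markers, 8 genes, to 127 to 378, 89.3 to 795 and 86.2 to 2133 TPM. Their part in the transferase values was not tested either, apart from the fits without those 3 libraries.

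**Figure D4:**
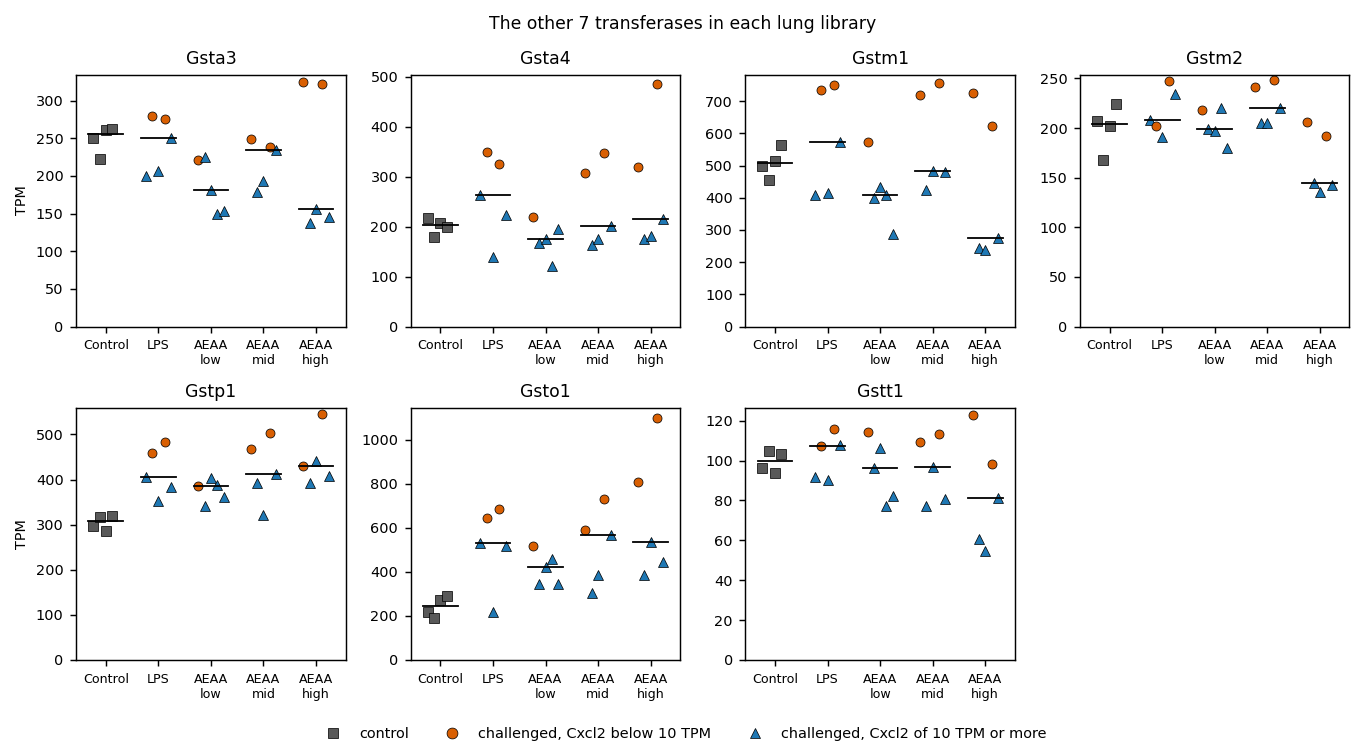
TPM (vertical axes from 0) of the other 7 members in each library by group, with symbols as in the plot of the trio and lines at group medians. In AEAA_high the 3 triangles of Gstm1 and Gstm2 sit lower than all control libraries, and the circles of Gstm1, Gsta4 and Gsto1 are above the control libraries in every challenged group. So are 12 of the 13 triangles of Gsto1, 2 of Gsta4 and 1 of Gstm1. On scaled values 7 circles of Gsto1, 1 of Gsta4 and 0 of Gstm1 are above the control range.

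The extract groups were each compared with LPS alone. The 3 comparisons share the LPS libraries, so their values are not independent of each other. No member passed the test at 0.5 or 1 mg/mL, and 1 of 10 passed at 1.5 mg/mL on each scale, a different gene on each.

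At 0.5 mg/mL, 0 of 10 members passed, with limma adjusted p-values from 0.214 upward and 0 members at an unadjusted p under 0.05, where 10.6% of all genes passed. On scaled values 0 members and 2.29% of all genes passed. Gsta1 was at 73.5, 37.3, 47.7, 14.5 and 31.7 TPM in AEAA_low replicates 1 to 5, inside the range of the LPS libraries. Its log2 fold change was −0.81 with a 95% interval of −2.23 to 0.61, and that of Gsta13, at 80.7, 35.1, 50.2, 15.4 and 35.8 TPM, was −0.95 (−2.35 to 0.45). All 10 members had a negative log2 fold change, from −0.95 to −0.09, with the median of all genes at −0.20, and 7 of 10 had one on scaled values. Below the Cxcl2 cut lay replicate 1 of AEAA_low and replicates 2 and 4 of LPS. The groups thus also differed in Cxcl2 make-up, and its part in these values was not tested.

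At 1 mg/mL, 0 members and 0% of all genes passed on either scale. In limma 625 of the 17823 genes, none of them a member, had an unadjusted p under 0.05, and 541 on scaled values. Gsta1 was at 148, 29.9, 32.3, 223 and 84.2 TPM and Gsta13 at 157, 34.9, 30.6, 244 and 101 TPM in AEAA_mid replicates 1 to 5. Replicate 4 was slightly above all LPS libraries for both genes and the other libraries were among them, and the log2 fold changes were 0.26 (95% interval −1.16 to 1.69) and 0.17 (−1.23 to 1.57). Gsta2 was at 57.8, 14.4, 17.1, 79.1 and 22.8 TPM, with a log2 fold change of −0.08 (−1.21 to 1.05). The other 7 members had log2 fold changes between −0.14 and 0.05. Without the 3 libraries with skeletal muscle transcripts Gsta1 turned to −0.69, Gsta13 to −0.75 and Gsto1 to −0.31, with limma adjusted p-values of 0.9. That fit also removes LPS replicates 1 and 3, both above the Cxcl2 cut. Muscle transcripts and the side of the cut cannot be told apart in it.

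At 1.5 mg/mL, 1 member passed as deposited, where 27.6% of all genes passed. This was Gstm2, at 206, 144, 136, 192 and 143 TPM in AEAA_high replicates 1 to 5, with a log2 fold change of −0.41 (SE 0.116, limma adjusted p = 0.013). Replicates 2, 3 and 5 were below all LPS libraries and replicates 1 and 4 among them, so the groups overlapped. The median gene was at −0.27, and scaled Gstm2 was at −0.09 (adjusted p = 0.648). In a fit to the 2 compared groups alone Gstm2 did not pass and 0 members did. On scaled values 1 member passed, where 8.94% of all genes passed. This was Gstp1, at 429, 393, 442, 546 and 408 TPM as deposited, with a scaled log2 fold change of 0.41 (SE 0.102, limma adjusted p = 0.0154) and all scaled AEAA_high values, 400.3 to 572, above those of LPS, 314 to 384. As deposited Gstp1 was at 0.09 (adjusted p = 0.575), with overlap.

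The other members did not pass at the high dose. Gsta1 was at 113, 57.9, 91.7, 303 and 57.6 TPM, with a log2 fold change of 0.65 (95% interval −0.77 to 2.07), and Gsta13 at 131, 62.7, 119, 332 and 69.5 TPM, with 0.65 (−0.74 to 2.05). Replicate 4 was above every LPS library for both. Gsta2 was at 49.0, 16.9, 20.8, 102 and 24.9 TPM (0.06, −1.07 to 1.20). Gsto1 was at 809.9, 388, 535, 1099 and 446 TPM, with a log2 fold change of 0.32 (−0.30 to 0.95), and 0.64 scaled (adjusted p = 0.153). Its replicates 1 and 4 were above all LPS libraries. Gstm1 was at 726, 244, 236, 622 and 275 TPM, with −0.58 (−1.17 to 0.01, adjusted p = 0.134). Replicates 2, 3 and 5 were below all LPS libraries. Gstt1 was at 123, 60.5, 54.8, 98.5 and 81.1 TPM, with −0.35 (−0.71 to 0.01, adjusted p = 0.133). Without AEAA_high replicate 1 the count was 3 members lower, with Gstm1 (−0.82, adjusted p = 0.0209) and Gstt1 (−0.50, adjusted p = 0.0162) beside Gstm2. Without the 3 libraries with skeletal muscle transcripts it was 2, Gstm1 (−0.87, adjusted p = 0.0463) and Gstm2, and the log2 fold changes of Gsta1, Gsta13 and Gsto1 turned to −0.30, −0.26 and −0.01, none of them called. The share of all genes called in these refits is not given here, so nothing is read from the counts of members.

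Against LPS alone the summed trio had a log2 difference of −0.88 at 0.5 mg/mL (exact permutation p = 0.286), 0.15 at 1 mg/mL (p = 0.873) and 0.55 at 1.5 mg/mL (p = 0.548), and the p-values were 0.822, 0.873 and 0.822 after adjustment over the 3 doses. The smallest p that 5 against 5 libraries can give is 0.00794. Leaving out LPS replicate 3, the library with the least of these transcripts, turned the difference to −0.43 (exact p = 0.571) for 1 mg/mL and to −0.03 (exact p = 0.952) for 1.5 mg/mL. The linear trend over the extract concentration, from 0 to 1.5 mg/mL, called 0 members on both scales, where 8.4% of all genes passed as deposited and 1.64% scaled. The smallest limma adjusted p was 0.0612 for Gstm2 as deposited (slope −0.22 per mg/mL) and 0.0604 for Gstp1 scaled (0.24 per mg/mL). Without AEAA_high replicate 1 the trend called 2 members, Gstm2 (adjusted p = 0.0122) and Gstt1 (adjusted p = 0.0341), both downward. That refit called 3833 of the 17823 genes, so nothing is read from the count of members. The slope of Gsta1 was 0.60 per mg/mL and 0.03 without the libraries with skeletal muscle transcripts, not called in either. Without AEAA_mid replicate 4 the trend called Gstm2 (adjusted p = 0.0488).

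**Figure D5:**
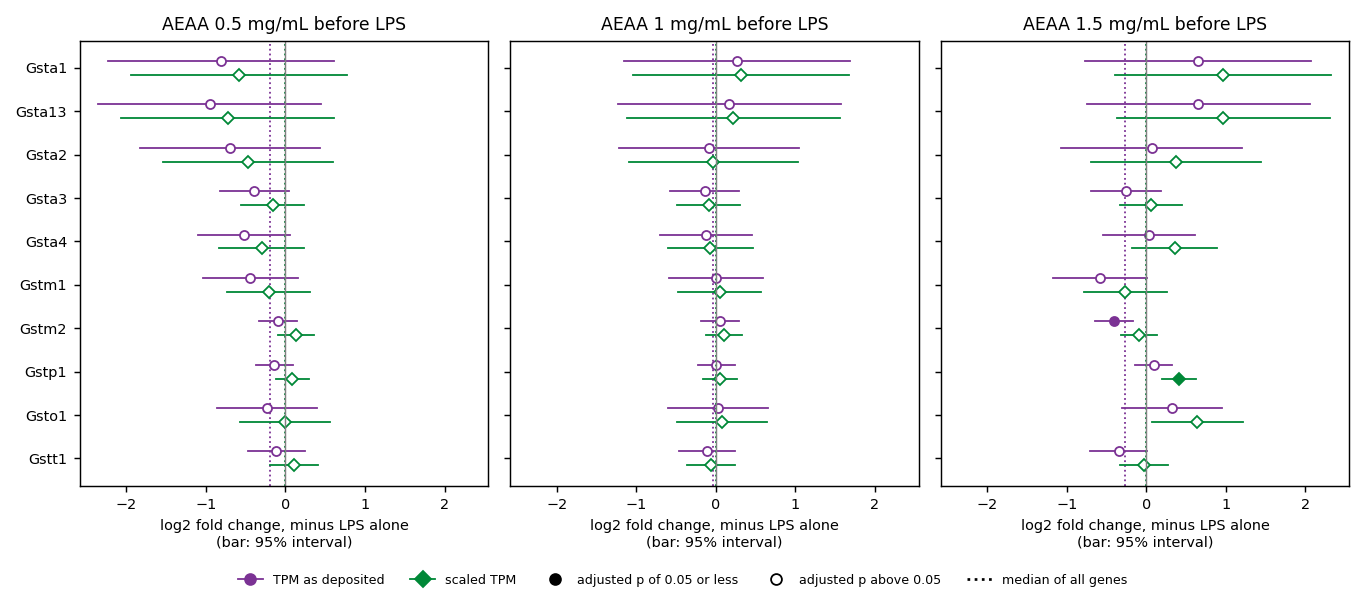
Log2 fold change of each member at 3 extract doses against LPS alone (horizontal axis, bars are 95% intervals), as deposited and scaled, with the median of all genes as dotted lines; filled symbols passed an adjusted p of 0.05. Gstm2 as deposited and Gstp1 scaled, both at 1.5 mg/mL, are the 2 filled symbols, and the intervals of the trio are the widest of the 10 members.

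Members were also compared by how closely they followed the summed trio over the challenged libraries, as Pearson r of log2(TPM + 1), a description without a test in which all points share the scale of their library. Within the 7 libraries below the Cxcl2 cut r was 0.989 for Gstp1, 0.917 for Gsta4 and 0.744 for Gsto1, and within the 13 above it 0.612, 0.747 and 0.745. For Gstm1 it was 0.351 and −0.238, for Gstm2 −0.017 and −0.334, for Gsta3 0.442 and 0.069, and for Gstt1 −0.597 and −0.237. On both sides r was positive for Gsta4, Gstp1, Gsto1 and Gsta3 and negative for Gstm2 and Gstt1. The values of Gsta3 above the cut (0.069) and of Gstm2 below it (−0.017) are too small to read a sign from. The 5 other genes with the highest r over all 20 challenged libraries, a value that also spans the gap between both sides, were Uchl1, a deubiquitinating enzyme (0.933, and 0.99 and 0.798 within the sides), Gss, glutathione synthetase (0.932, 0.947 and 0.766), the myelin and lymphocyte protein Mal (0.929, 0.833 and 0.852), the carbonyl reductase Cbr3 (0.923, 0.875 and 0.767) and Anxa1, annexin A1 (0.923, 0.736 and 0.821). Gss was 38.2, 50.8 and 63.6 TPM (lowest, median and highest) below and 18.3, 27.0 and 41.5 TPM above the cut, and Cbr3 70.9, 92.9 and 125 TPM below and 24.8, 35.1 and 59.5 TPM above it. The sides overlapped for Gss and did not for Cbr3.

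Other genes of the pathway were read from 6 lists, whose counts stand beside 56.2% of all genes called higher and 1.86% lower after LPS, and 13.8% and 14.2% scaled. Of 14 tested further transferases, 4 rose and 1 fell after LPS in limma, with a median log2 fold change of 0.18, below the 0.55 of all genes, and scaled 1 rose and 4 fell. Gstm3 had 0.528 ± 0.137 TPM in control and 1.84 ± 0.779 TPM in LPS lungs (SD, n = 4 and n = 5; log2 fold change 0.85, adjusted p = 0.0013). Gstm4 went from 8.02 ± 1.15 to 13.5 ± 2.45 TPM (0.68, adjusted p = 0.000528). Scaled, Gstm3 still passed (0.55, limma adjusted p = 0.0346) and Gstm4 did not (0.07, adjusted p = 0.693). Gstk1, the kappa enzyme of mitochondria and peroxisomes, fell from 85.4 ± 9.14 to 54.0 ± 10.4 TPM (−0.67, adjusted p = 0.0349), and by more on the scaled values (−1.33). Gsta5, which sits between Gsta13 and Gsta2 and is named after its values were seen, was 0.16 to 0.56 TPM in control and 0 to 7.05 TPM in challenged libraries; in control libraries its values overlapped those of Gsta13. Among 6 membrane enzymes of the MAPEG family 3 rose and 0 fell, close to the share of all genes, and scaled 0 rose and 2 fell. The prostaglandin E synthase Ptges (1.88), the leukotriene cofactor Alox5ap (1.53) and Mgst3 (0.45) passed as deposited and not scaled, while Mgst1 (−0.92) and Mgst2 (−1.02) were lower on scaled values.

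Of 15 genes of glutathione synthesis and recycling 14 rose as deposited and 7 scaled, beside 56.2% and 13.8% of all genes, with 0 lower on both scales and a median of 1.09. Slc7a11, which imports cystine, went from 0.190 ± 0.0337 to 12.0 ± 6.55 TPM (3.24, adjusted p = 3.57e-07). G6pdx, the entry enzyme of the pentose phosphate pathway, which makes NADPH, went from 13.4 ± 1.28 to 59.6 ± 11.7 TPM (2.06), and the glutathione reductase Gsr from 25.3 ± 1.62 to 97.0 ± 19.3 TPM (1.88). All 3 passed on scaled values too. Of 13 tested genes of conjugate export and mercapturate processing 11 rose and 0 fell, and scaled 4 rose and 0 fell. The pumps Abcc3 (1.26) and Abcc5 (1.20) passed on both scales, and Ggt1, which removes glutamate from conjugates, passed as deposited (1.44, adjusted p = 0.00371) but not scaled (adjusted p = 0.0772).

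Among 19 tested further targets of NRF2, 13 rose and 0 fell, where 56.2% of all genes rose, with a median of 0.87, and scaled 6 rose and 1 fell, where 13.8% and 14.2% of all genes did. The sulfiredoxin Srxn1 rose from 10.3 ± 1.14 to 65.5 ± 34.4 TPM (2.40), the haem oxygenase Hmox1 from 23.8 ± 2.53 to 137 ± 54.5 TPM (2.39) and the esterase Esd from 134 ± 6.93 to 583 ± 217 TPM (2.02), on both scales. Both sides of the Cxcl2 cut differed in opposite ways for these genes: Srxn1 was 47.1, 89.6 and 124 TPM (lowest, median and highest) below and 25.7, 35.1 and 60.5 TPM above the cut, with overlap, and Hmox1 was 50.2, 58.7 and 108 TPM below and 139.8, 183 and 283 TPM above, without overlap. Of 13 tested regulators 11 rose and 0 fell, and scaled 3 rose and 1 fell. Sqstm1 (1.47), which binds Keap1, Nfe2l1 (1.22), a relative of NRF2, and its partner Mafg (1.15) passed on both scales. Nfe2l2 itself, named after its values were seen, passed as deposited (0.63, limma adjusted p = 7.96e-05) and was at −0.04 scaled (adjusted p = 0.808).

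Against LPS alone, 6 of the 80 tested genes of the lists fell at 0.5 mg/mL as deposited and 1 scaled, where 10.6% and 2.29% of all genes were called. They included the cystine transporter subunit Slc3a2 (−0.42), Tkt (−0.41), Abcc3 (−0.94), Ggt6 (−0.59) and Arnt (−0.35), of which Abcc3 passed scaled (−0.72, limma adjusted p = 0.0264). At 1 mg/mL no gene of the lists passed. At 1.5 mg/mL 11 of the 80 fell and 1 rose as deposited, where 27.6% of all genes were called. Those that fell included Gstm7 (−0.74), the dipeptidase Dpep1 (−0.997), Abcc5 (−0.59), Abcc3 (−0.51), Ugdh (−0.30), Rxra (−0.55), Sqstm1 (−0.49) and Nfe2l1 (−0.49), and Mgst2 rose (0.63, limma adjusted p = 0.0153). On scaled values none of the 11 fell and 8 of the 80 rose, where 8.94% of all genes were called. These 8 were Mgst2 (0.94), Mgst1 (0.61), Taldo1 (0.39), Idh1 (0.35), Esd (0.66), Akr1c13 (0.57), Ftl1 (0.55) and Blvrb (0.53). Mgst2, a microsomal transferase, was therefore higher at the high dose on both scales, at 33.5 ± 10.3 TPM against 20.9 ± 5.15 TPM in LPS lungs. In the dose trend Nfe2l1 and Arnt passed as lower as deposited, and Mgst2 and Akr1c13 as higher scaled.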

How the data were processed

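The authors sequenced ribosome-depleted total RNA of mouse lung in 24 libraries and deposited 1 table, rounded to 2 decimals. Its header names no unit; the values were read as TPM because the columns add up to 999998.97 to 1000001.1. Build GRCm39 and the tools RSEM, StringTie, HISAT2 and DESeq2 appear in the submitters' processing notes, without versions. With no counts in the table, sequencing depth is unknown, and neither a counting interval nor a count test could be used; 14996 to 16954 genes reached 1 TPM in a library.

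From the deposited TPM, log2(TPM + 1) was fitted with limma 3.58.1 (R 4.3.3), with 1 mean per group over all 24 libraries, a variance trend and a robust prior, for the 17823 genes that reached 1 TPM in at least 4 libraries. The pseudocount of 1 understates fold changes of low genes. Tests were two-sided, p-values were adjusted by Benjamini-Hochberg over all genes tested, and the threshold was 0.05. Intervals are 95%. The same fit on values divided by median-of-ratios factors is called scaled. Titles call the libraries biological replicates and do not name animals, so p-values measure the spread between libraries. Code was tested on simulated data. RefSeq sequences carry GRCm38.p6 coordinates; none were converted.

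The members and lists were chosen with earlier results of these data known. All members are named, and in each pathway list the 3 called genes with the largest change. Alternatives were upper-quartile scaling, removal of Scgb1a1, a pseudocount of 0.1, other filters, quality weights, a plain prior, a replicate block, the compared groups only and leaving out each library; leaving out the 3 libraries with skeletal muscle transcripts and adding Gsta5 to the trio were added after seeing the data.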

Additional observations from a re-analysis of the deposited data

Results flagged for a closer look

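In AEAA_high, replicate 4 stood apart from the other 4 libraries of its group: Gsta1 was 303 TPM there and 57.6 to 113 TPM in the others. Gsta13 was 332 TPM against 62.7 to 131 TPM, and the sum of Gsta1, Gsta2 and Gsta13 was 736 TPM against 137 to 293 TPM. The gap to the nearest library was larger than Dixon's 95% critical value for 5 samples in each case. The gap was taken on TPM and not on the log scale of the fits, on which it was not computed. Replicates 1 and 4 of AEAA_high were the libraries of that group below the Cxcl2 cut. These 3 values share their transcripts, and they came from 55 groups of values looked at, of which chance marks about 1 in 20.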

How the results depend on the processing

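Of 1140 recomputed log2 fold changes of single members, 1049 kept their call or, without a call, moved by less than 1 standard error, 59 without a call moved by more, 7 lost the call, 19 gained one and 6 changed sign with a call on one side; 89 values without a call changed sign. Gsta1 and Gsta13 stayed called as higher after LPS in every alternative run, with log2 fold changes of 4.15 to 5.64 and 4.84 to 6.31. The other calls after LPS depended on the scale. With median-of-ratios scaling the genes called were 4978 for LPS against control (10344 as deposited), 408 at the low dose (1892), 1594 at the high dose (4919) and 292 in the trend (1498). With upper-quartile scaling they were 4849, 319, 1690 and 582, with 1 member in the trend (Gstp1). After LPS, Gstm2, Gstp1 and Gstt1 turned to −0.55, −0.23 and −0.63 by median of ratios and to −0.59, −0.27 and −0.67 by upper quartile, and the trio's sum no longer passed at 2.08 and 2.03. With Scgb1a1 removed, 2 members and 6550 genes were called after LPS.

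Without a filter 347 genes passed at the low dose, 3247 at the high dose and 95 in the trend. Quality weights gave 3443 for 0.5 mg/mL, 1 for 1 mg/mL and 4993 in the trend. With them 4 members were lower at the high dose and 4 in the trend (Gsta3, Gstm1, Gstm2 and Gstt1). The share of all genes called at the high dose in that fit is not given here, so nothing is read from these counts of members. Fits to the compared groups only gave 1 gene at the mid dose, 0 members and 1961 genes at the high dose and 938 in the trend. Without the 3 libraries with skeletal muscle transcripts 6 genes passed at the mid dose. At the high dose 2 members passed in that fit. The matching share of all genes is not given here either, so nothing is read from the 2 members. The causes were not tested.

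Leaving out 1 library at a time gave 538 to 2417 genes for 0.5 mg/mL, 0 to 2 for 1 mg/mL and 107 to 3833 in the trend. Members called were 1 to 3 at the high dose and 0 to 2 in the trend. The range of all genes called at the high dose is not given here, and nothing is read from these counts of members. The trio's sum then ranged over −0.43 to 0.53 at the mid dose, negative without LPS replicate 3 (−0.43), AEAA_mid replicate 1 (−0.07) or AEAA_mid replicate 4 (−0.22), and over −0.03 to 0.93 at the high dose, negative without LPS replicate 3 (−0.0271). The count for 0.5 mg/mL moved by over 1.5 times without LPS replicate 2, 4 or 5 or AEAA_low replicate 2, 3 or 5, and that for 1 mg/mL was above 0 without LPS replicate 1 or 4 or AEAA_mid replicate 5. The trend gave 107 genes without AEAA_high replicate 5, 121 without replicate 4, 145 without LPS replicate 4 and 3833 without AEAA_high replicate 1, and it moved by over 1.5 times without LPS replicate 3 or 5, AEAA_mid replicate 1 or 2 or AEAA_high replicate 2 or 3.

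Same-numbered libraries are not paired by the labels, and their deviations correlated between −0.052 and 0.074 for LPS and control and between −0.447 and 0.459 for the doses and LPS. With the replicate block 1 member (Gstm2) and 973 genes passed in the trend, and the trio's sum after LPS was 2.76 with exact p = 0.125, the smallest that 4 pairs can give; no other member call changed. Without read counts, the precision of values near 1 TPM, as for Gsta13 in control lungs, is unknown.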
